A study of Mus musculus with 45 samples.

Results

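Germinal center (GC) B cells of wild-type (WT) mice were compared with other B cells of draining lymph nodes, using the 6 libraries labelled GC B WT and the 5 labelled non-GC B WT, which are 11 of the 45 samples of the series. The series holds RNA sequencing of sorted GC B cells, non-GC B cells, T follicular helper cells and other CD4+ T cells from mice with and without the sphingosine-1-phosphate receptor S1PR4. All mice, male and female and 8 to 12 weeks old, received 50 µg of ovalbumin (OVA) and 5 µg of lipopolysaccharide (LPS) in 20 µl of incomplete Freund's adjuvant (IFA) in the hind footpad, and B cells were taken from the draining popliteal lymph nodes 9 days later. WT mice were littermates of S1PR4-/- mice (B6.129P2-S1pr4tm1Dgen/J, crossed to C57/BL6 for at least 10 generations), and 6 GC and 4 non-GC libraries of those S1PR4-/- mice serve here as a separate set. GC cells were gated as B220+ GL7+ Fas+ and non-GC cells as B220+ GL7- Fas-, so Fas and the B220 gene Ptprc belong to the sort and their values are no finding. The labels do not say whether libraries with equal numbers came from 1 mouse.

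Germinal centers form in B cell follicles after T cell help, and their B cells alternate between a dark zone, where they divide and mutate their antibody genes, and a light zone, where they test the mutated receptor on antigen and compete for help from T follicular helper cells. The repressor BCL6 holds this program in place with partners such as MEF2B. Cells leave as memory B cells or as plasma cells, which secrete antibody.

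Levels are given as CPM, read counts scaled to the size of each library and by TMM, a scale factor from edgeR that equalises the bulk of genes between libraries. A gene is called when edgeR's quasi-likelihood test gives a Benjamini-Hochberg adjusted p (FDR) under 0.05 and the fold change is over 1.5. Fold changes are GC over non-GC, so a positive log2 value is higher in GC cells. In bulk samples, fewer cells of a type and less RNA per cell cannot be told apart.

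The 3 genes given as markers of the GC label were all called higher. S1pr2, a receptor that holds cells in the follicle center, was at 2.38, 0.713, 6.85, 1.83 and 1.19 CPM in the 5 non-GC libraries and from 336 to 573 CPM (median 489) in the 6 GC libraries (log2 fold change 7.47, standard error 0.57, edgeR adjusted p = 9.3e-07). Mef2b, the transcription factor partner of Bcl6, was at 6.94, 9.20, 7.43, 11.1 and 9.63 CPM in the 5 non-GC libraries and from 231 to 363 CPM (median 333) in the 6 GC libraries (log2 fold change 5.18, standard error 0.16, edgeR adjusted p = 2.4e-10). For both genes the groups were far apart and did not overlap, although non-GC replicate 3 was the highest of its group for S1pr2. Bcl6 itself, the repressor that defines the program, was at 119, 117, 162, 108 and 115 CPM in the 5 non-GC libraries and from 123 to 262 CPM (median 188) in the 6 GC libraries (log2 fold change 0.64, standard error 0.19, edgeR adjusted p = 0.00902). The Bcl6 groups overlapped, non-GC replicate 3 lying above the lowest GC library. The Bcl6 call ended without GC replicate 3 (log2 fold change 0.54), without GC replicate 4 (0.57), with upper quartile scaling (0.55), with total count scaling (0.55) and in a fit of all 8 groups (0.57), each time by the fold change. Among the 3 markers, Mef2b and S1pr2 separated the populations in every library and the transcript of Bcl6 did not. Of the sort genes, Fas was at 102 to 144 CPM in GC and 4.63 to 9.45 CPM in non-GC libraries, and Ptprc was at 979.9 to 1428 CPM in GC and 1754 to 2229 CPM in non-GC libraries.

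**Figure D1:**
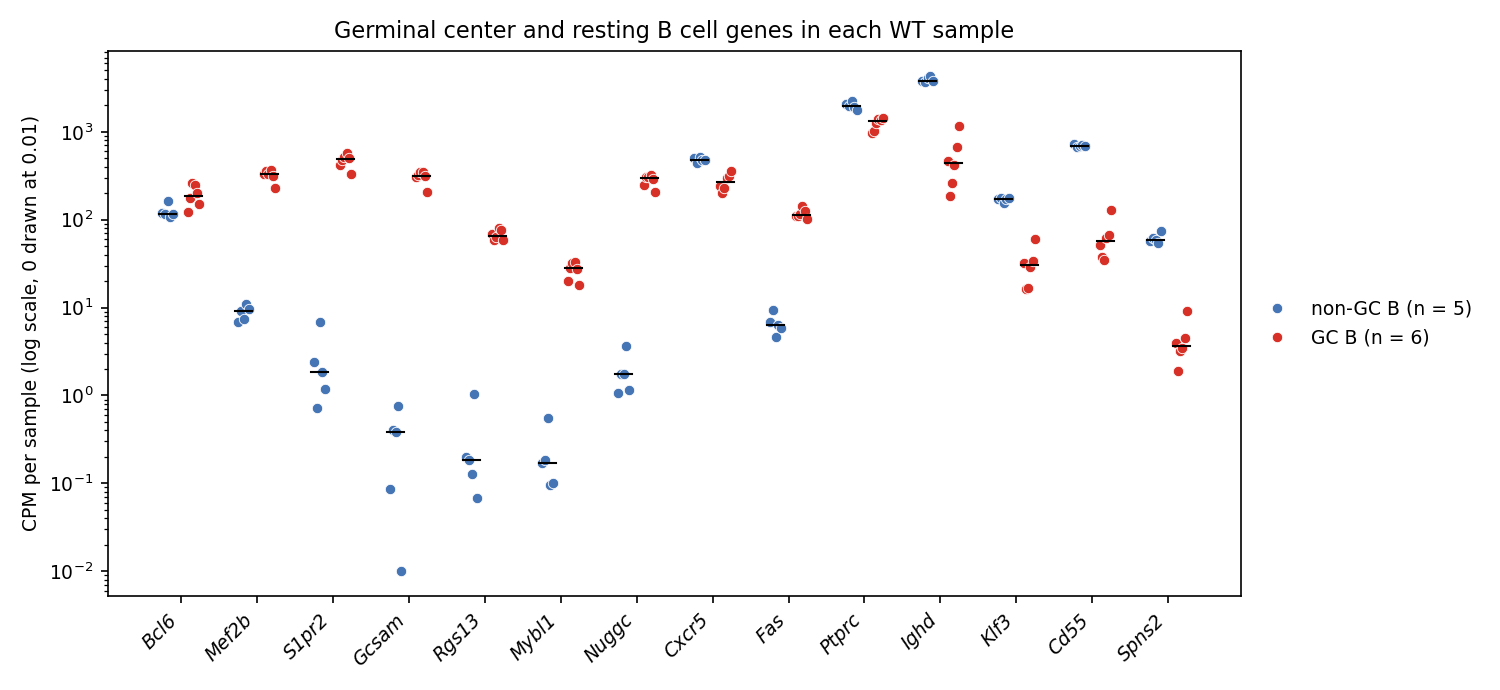
CPM of 14 genes in each WT library on a log scale, 1 point for each of 5 non-GC and 6 GC libraries, with a value of 0 drawn at 0.01. Mef2b lies at 231 to 363 CPM in GC libraries and 6.94 to 11.1 CPM in non-GC libraries, while the Bcl6 points of both groups overlap.

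The libraries held 26299429 to 39258003 expected counts. The first principal component of log2 CPM over the tested genes carried 71.5% of the variance and separated the populations. On it GC replicate 6 was the GC library nearest to the non-GC libraries, at 58.2 against 71.0 to 96.8 for the other GC libraries and -102 to -88.7 for the non-GC libraries. Non-GC replicate 2 had counts for 22790 genes, against 16060 to 18708 in the other non-GC libraries. Each group had 3 females by Xist and Ddx3y.

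Markers of other cells were summed in each library. The 12 plasma cell genes summed to 5028 to 10585 CPM in GC against 983 to 1381 CPM in non-GC libraries, with Jchain the most abundant in GC libraries (means 3077 and 81.1 CPM in GC and non-GC libraries), Txndc5 in non-GC libraries (785 and 424 CPM), and GC replicate 2 the highest, and their part in the immunoglobulin and secretion results was not tested. Of these 12 genes 11 were called higher. Irf4 was not called, and its mean was lower in GC libraries (73.7 and 85.3 CPM). The 14 T cell genes summed to 127 to 167 CPM in GC against 78.9 to 131 CPM in non-GC libraries, with Lck the most abundant (means 115 and 93.0 CPM in GC and non-GC libraries) and then, in GC libraries, Cd28 (22.4 and 1.04 CPM). Cd3d, Cd3e, Cd3g and Trac had means under 1 CPM in both groups. The means of Cd4 (1.11 and 2.96 CPM), Cd8a (0.125 and 1.44), Cd8b1 (0.0758 and 1.68) and Trbc1 (0.278 and 0.906) were lower in GC libraries, with the highest values in non-GC replicates 4 and 5. Among 8 T follicular helper genes the sum was 16.1 to 24.8 CPM in GC against 0.0678 to 2.59 CPM in non-GC libraries, most of it in GC libraries from Tox2 (mean 16.5 CPM) and then Ctla4 (mean 2.5 CPM, and 0.218 CPM in non-GC libraries), with Il21 at 0 in every library and Icos, Pdcd1 and Cd40lg under a mean of 1 CPM in GC libraries. The 12 macrophage genes summed to 43.5 to 221 CPM in GC against 15.4 to 56.6 CPM in non-GC libraries, with Lyz2 the most abundant, GC replicate 6 the highest and Vsig4 at 0. Of the 8 macrophage genes tested, 3 were called higher and 0 lower. Adgre1 had close means (3.72 and 3.50 CPM in GC and non-GC libraries), and Fcgr1 a lower mean in GC libraries (0.0180 and 0.229). The 8 dendritic cell genes summed to 74.8 to 113 CPM in GC against 4.15 to 56.8 CPM in non-GC libraries, mostly Flt3 in GC libraries (means 89.8 and 4.22 CPM), while Siglech (0.929 and 15.1 CPM), Clec10a (0.194 and 2.00) and Clec9a had lower means in GC libraries. Non-GC replicates 4 and 5 stood apart on that list, at 52.9 and 56.8 CPM, of which Siglech made 36.1 and 38.3 CPM, against 4.15 to 6.05 CPM in the other 3 libraries, and also on 7 NK cell genes, at 59.1 and 28.5 CPM against 5.03 to 5.62 CPM, where GC libraries had 7.79 to 15.3 CPM. The NK sum of GC libraries was mostly Prf1 (means 9.79 and 6.81 CPM in GC and non-GC libraries). All other NK genes had lower means in GC libraries, such as Nkg7 (0.577 and 4.68 CPM) and Gzma (0.644 and 2.88). The 8 neutrophil genes summed to 0.271 to 1.13 CPM in GC against 0 to 3.97 CPM in non-GC libraries with Mpo at 0, and the 7 endothelial genes to 1.24 to 2.09 CPM in GC against 0.143 to 6.55 CPM in non-GC libraries. Non-GC replicates 4 and 5 stood apart on the endothelial list too, at 4.86 and 6.55 CPM against 0.143 to 0.683 CPM. Of these sums Kdr made 3.91 and 4.04 CPM. Among 11 stromal and follicular dendritic cell genes the sum was 6.69 to 11.9 CPM in GC against 10.6 to 17.8 CPM in non-GC libraries, with Mfge8 the most abundant and Pdpn at 0. For 8 erythroid and platelet genes it was 12.6 to 19.5 CPM in GC against 0.789 to 14.9 CPM in non-GC libraries, with Ppbp at 0. In GC libraries that sum was mostly Hbb-bt (means 15.3 and 1.15 CPM in GC and non-GC libraries), while the other globins Hba-a1 (0.151 and 1.19), Hba-a2 (0.326 and 1.90) and Hbb-bs (0.532 and 2.13) had lower means in GC libraries, and these near copies share reads. The 10 B cell genes summed to 20352 to 33599 CPM in GC against 46568 to 57041 CPM in non-GC libraries, with Cd74 the most abundant (means 17444 and 37592 CPM in GC and non-GC libraries). Of these 10 genes 8 were called lower and 0 higher, while Ms4a1 had a higher mean in GC libraries (2191 and 1960 CPM). What part such cells have in any result below was not tested.

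The GC state was a broad shift of the transcriptome. Of 13324 genes tested, 6333 were called (47.5%), 3276 higher (24.6%) and 3057 lower (22.9%) in GC cells, so a call alone sets a gene or a list little apart. The large changes were mostly gains: 1604 genes were called with a fold change over 4 (12.0%), 1165 of them higher (8.74%) and 439 lower (3.29%). The median log2 fold change over all tested genes was 0.00. Under the selection rules given with the methods, 185 genes are considered by name, of which 110 were called higher, 68 lower and 7 not called or not tested.

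**Figure D2:**
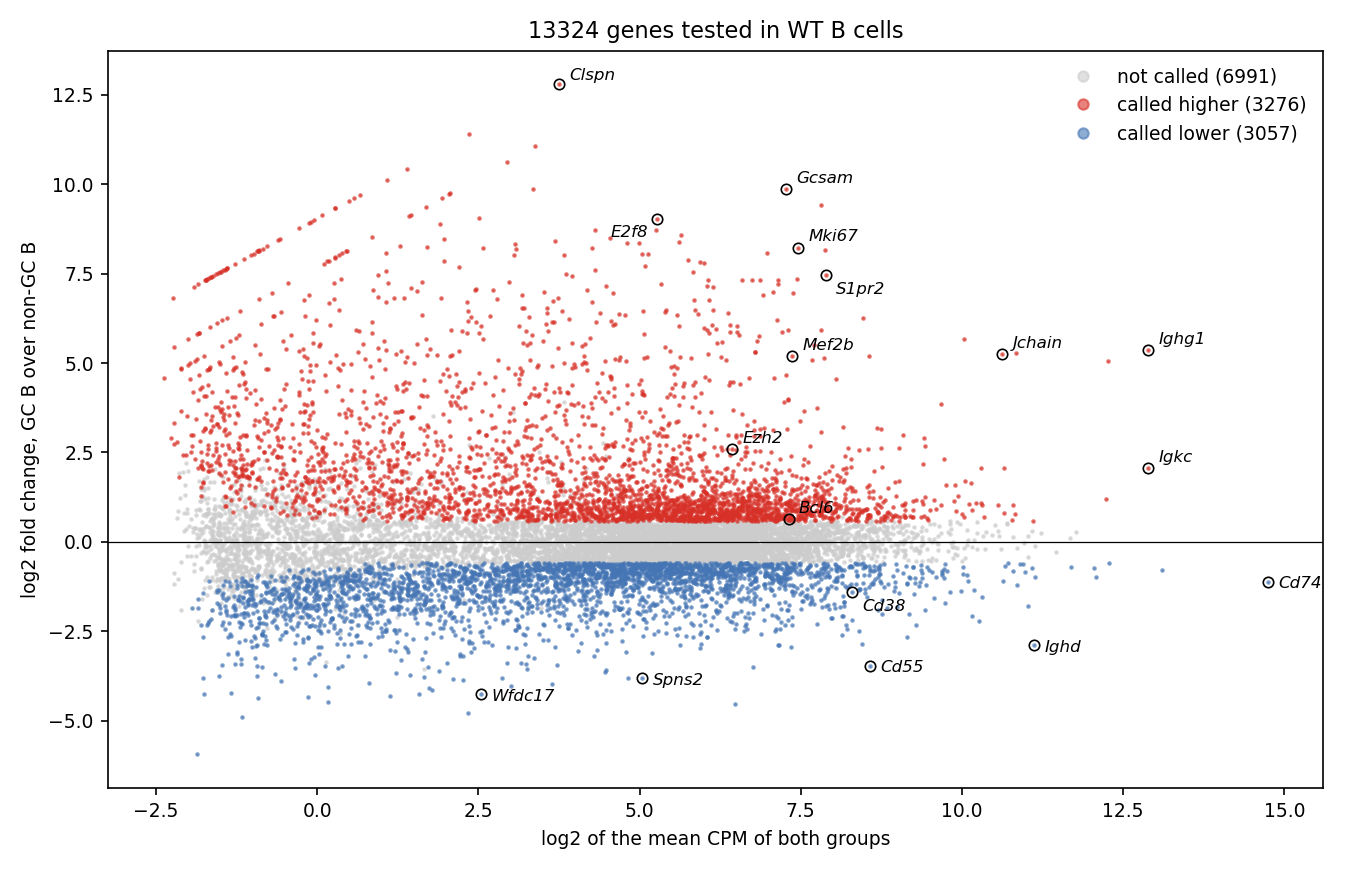
Log2 fold change of GC over non-GC cells against the log2 of the mean CPM of both groups, 1 point for each of 13324 tested genes, coloured by call. The 1165 genes higher by over 4-fold outnumber the 439 lower by over 4-fold.

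Genes of the GC identity list were among those with the largest gains, but the receptor genes Cxcr5 and Il21r did not follow. Of its 15 genes, all tested, 13 were called higher and 1 lower, with a median log2 fold change of 6.03 beside 0.00 over all genes. The list holds the sort gene Fas and the 3 markers, and without them, an alternative added after the data were seen, it had 9 of 11 higher and 1 lower, with a median of 6.76. Gcsam, an adaptor that regulates signaling and motility of GC B cells, was at 0.0860, 0.403, 0.379, 0.757 and 0 CPM in the 5 non-GC libraries and from 208 to 351 CPM (median 319) in the 6 GC libraries (log2 fold change 9.86, standard error 0.44, edgeR adjusted p = 1.1e-08). GC replicate 6 was the lowest of its group for Gcsam, and still far above every non-GC library. Rgs13, a regulator that shortens signals from chemokine receptors, was at 0.201, 0.186, 0.126, 1.04 and 0.0678 CPM in the 5 non-GC libraries and from 58.3 to 80.4 CPM (median 65.6) in the 6 GC libraries (log2 fold change 7.71, standard error 0.48, edgeR adjusted p = 1.1e-07), with no overlap. The GTPase gene Nuggc, named for its germinal center expression, was at 209 to 323 CPM in GC and 1.06 to 3.69 CPM in non-GC libraries (log2 fold change 7.21), and the transcription factor gene Mybl1 at 18.2 to 32.6 CPM in GC and 0.0946 to 0.556 CPM in non-GC libraries (6.81). Basp1 (6.76), the elongation factor partner gene Eaf2 (6.03) and Efnb1 (4.43), which encodes a ligand for Eph receptors, rose as well (edgeR adjusted p at most 3.0e-07). Gna13, the G protein subunit that carries the S1PR2 signal, rose modestly, from 109 to 162 CPM in non-GC libraries to 176 to 265 CPM in GC libraries (log2 fold change 0.80, edgeR adjusted p = 8.4e-05).

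The exceptions were receptors. Cxcr5, which guides B cells into follicles, was at 504, 443, 522, 479 and 476 CPM in the 5 non-GC libraries and from 199 to 358 CPM (median 269) in the 6 GC libraries (log2 fold change -0.82, standard error 0.13, edgeR adjusted p = 1.0e-04), lower in each of the 6 GC libraries than in any non-GC library. Il21r, the receptor for the helper cytokine IL-21, was not called (log2 fold change -0.24, standard error 0.11, edgeR adjusted p = 0.0703), and its groups overlapped at 364 to 488 CPM in GC and 374 to 586 CPM in non-GC libraries. Mef2c, the paralogue of Mef2b, was not called either, since its fold change was under 1.5 (log2 fold change -0.26, edgeR adjusted p = 0.00272), although its groups did not overlap. Mybl2, the paralogue of Mybl1, rose (5.86, from 1.46 to 3.73 CPM to 120.3 to 195 CPM). Bcl6b, the paralogue of Bcl6, had at most 0.459 CPM in any WT library and was not tested.

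The genes with the largest gains included some of DNA replication and mitosis. Clspn, which encodes the checkpoint adaptor claspin, had 0 counts in all 5 non-GC libraries and 16.3 to 42.8 CPM in GC libraries, a level at least 1505-fold higher against a floor of 3 counts over the non-GC group. Lrr1, whose product helps to unload the replisome, had 1 count in the non-GC group and 11 to 20.6 CPM in GC libraries, a ratio of 2615 (95% counting interval 469 to 103285). BC030867 also had 1 non-GC count, against 13.1 to 28.6 CPM, a ratio of 3516 (95% counting interval 631 to 138881). These intervals cover counting error only. E2f8, an E2F family repressor of the cell cycle, was at 0.430, 0.279, 0, 0 and 0 CPM in the 5 non-GC libraries and from 47.8 to 103 CPM (median 77.9) in the 6 GC libraries (log2 fold change 9.03, standard error 0.61, edgeR adjusted p = 2.7e-07). Mcm10, needed to start replication forks, was at 0.516, 0.310, 0, 0.536 and 0.102 CPM in the 5 non-GC libraries and from 68.8 to 131 CPM (median 97.4) in the 6 GC libraries (log2 fold change 8.39, standard error 0.47, edgeR adjusted p = 5.4e-08). Neither gene showed any overlap, which the rule that named the largest changes required. The mitotic kinase gene Pbk rose by 8.71 on the log2 scale, Esco2, which acetylates cohesin, by 8.58, and Sapcd2 by 8.50 (edgeR adjusted p at most 4.9e-07).

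Other large gains were in genes with other known roles. Pipox, an enzyme of lysine breakdown, had 3 non-GC counts and 7.30 to 14.8 CPM in GC libraries, a ratio of 649.9 (95% counting interval 222 to 3152). Gatm, which makes the precursor of creatine, was at 0.258, 0.0310, 0.556, 0 and 0.0339 CPM in the 5 non-GC libraries and from 46.8 to 71.9 CPM (median 67.1) in the 6 GC libraries (log2 fold change 8.35, standard error 0.52, edgeR adjusted p = 1.2e-07). The mucin-like gene Parm1 was at 22.7 to 59.5 CPM in GC and 0 to 0.279 CPM in non-GC libraries (log2 fold change 8.71), and Zdhhc2, a palmitoyltransferase, at 20.0 to 28.7 CPM in GC and 0 to 0.372 CPM in non-GC libraries (8.40). Hbb-bh1, an embryonic globin gene, had 3 non-GC counts and 16.5 to 25.0 CPM in GC libraries, a ratio of 1154 (95% counting interval 395 to 5594). That value is uncertain, because globin genes are near copies of each other and RSEM splits reads that fit several copies.

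The losses were smaller in fold. Cd55, which protects cells from complement, was at 732, 680.3, 688, 709 and 694 CPM in the 5 non-GC libraries and from 35.0 to 129 CPM (median 56.8) in the 6 GC libraries (log2 fold change -3.46, standard error 0.31, edgeR adjusted p = 2.2e-06). The groups did not overlap, as the same naming rule required, and GC replicate 6 was the highest GC library. Spns2, a transporter that exports sphingosine-1-phosphate from cells, was at 57.9, 61.8, 58.5, 53.9 and 75.1 CPM in the 5 non-GC libraries and from 1.88 to 9.13 CPM (median 3.69) in the 6 GC libraries (log2 fold change -3.82, standard error 0.32, edgeR adjusted p = 9.7e-07). Here too GC replicate 6 was the highest GC library, and below every non-GC library, as that rule required. Wfdc17, a small secreted protein gene, fell by 4.26 on the log2 scale, from 9.18 to 13.1 CPM in non-GC libraries to 0.142 to 1.19 CPM. Lifr, the receptor for leukemia inhibitory factor, fell by 3.58, and Lilra6, a leukocyte immunoglobulin-like receptor, by 3.4. Among transporters and lipid enzymes, Slc16a7 (monocarboxylates) fell by 3.79, Slc4a11 (ions) by 3.56 and Gpat3 (glycerolipid synthesis) by 3.64. The signaling genes Tnik, Map4k3 and Socs5 fell by 3.39, 3.24 and 3.18. Kbtbd11 fell by 3.45, the splicing gene Prpf40b by 3.41 and Tsc22d1 by 3.20, and edgeR's adjusted p was at most 1.7e-04 over all of these.

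To place such genes in functions, 33 lists of genes with a shared role were counted. Of their 898 genes, 857 were tested and 563 called, 409 higher and 154 lower, which is 65.7% beside 47.5% of all tested genes. The lists were chosen with earlier results of these data known, so a higher share than that of all genes may be partly built in. The lists ran from division at the high end to resting B cell genes at the low end.

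**Figure D3:**
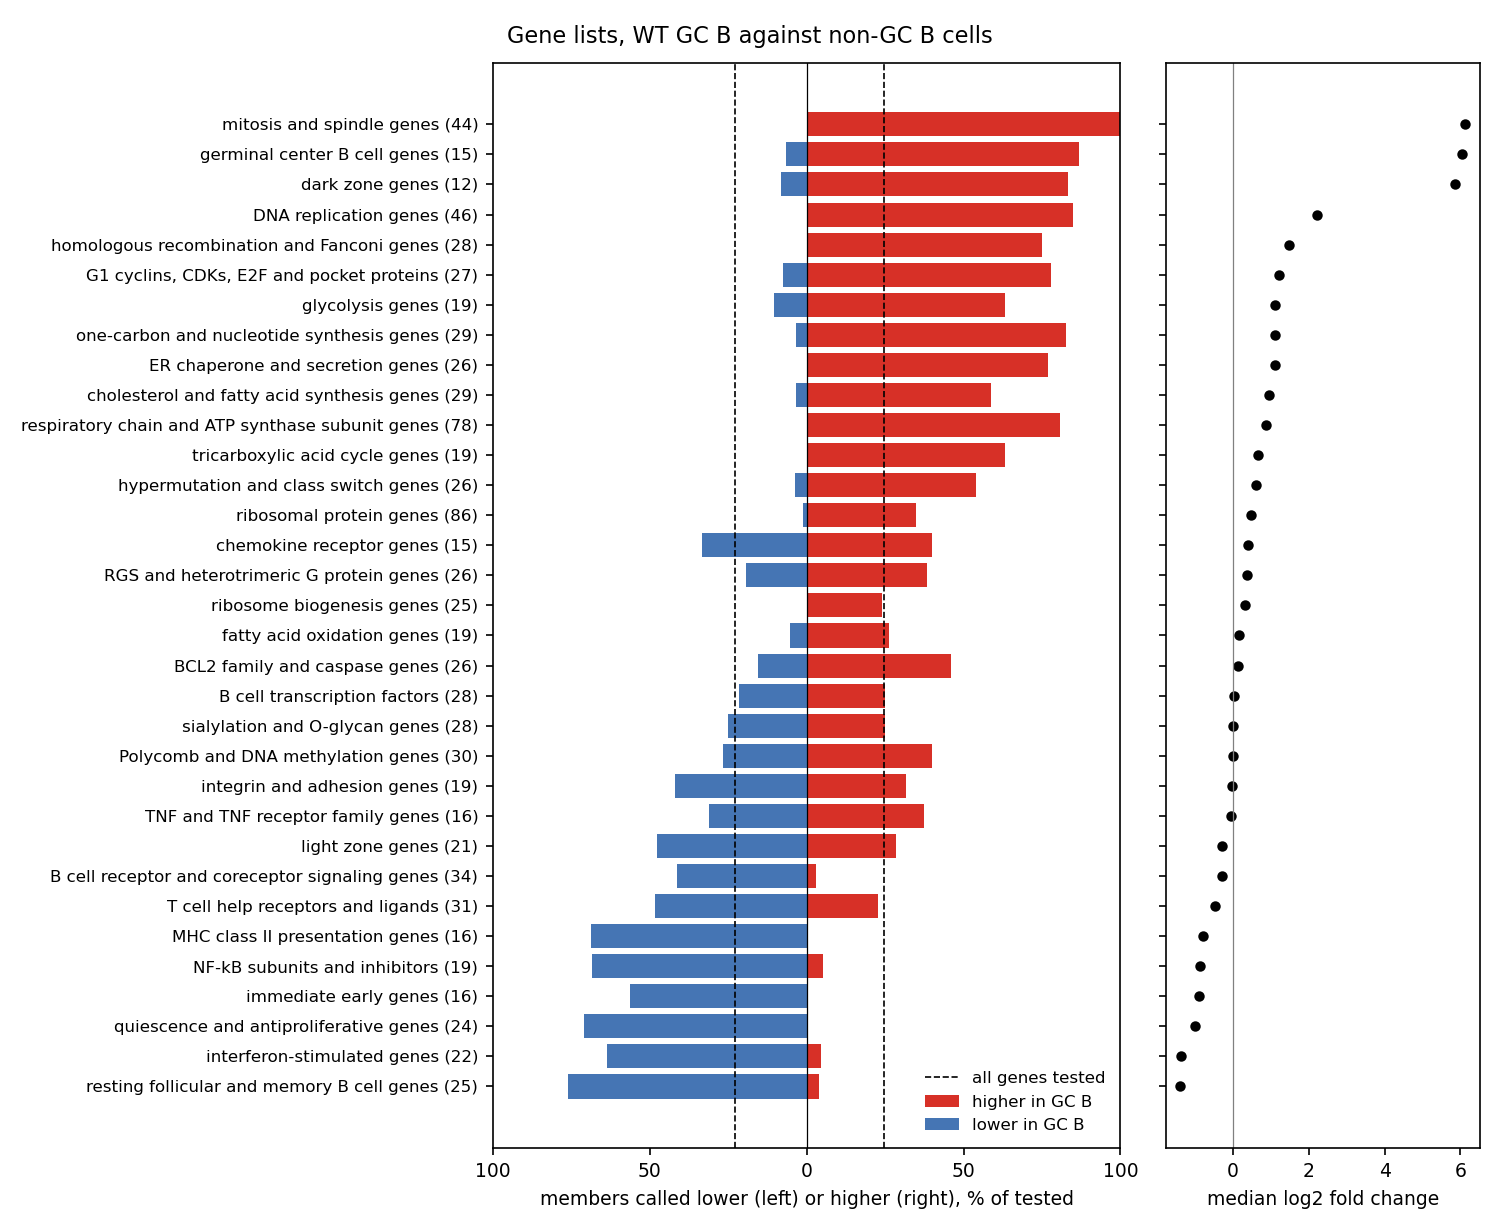
Left, the share of tested members of 33 gene lists called higher or lower in GC cells, with the shares over all tested genes (24.6% and 22.9%) as broken lines. Right, the median log2 fold change of each list, from 6.14 for mitosis genes to -1.39 for resting B cell genes.

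Division was the clearest function. All 44 tested mitosis and spindle genes were called higher, 43 of them by over 4-fold, with a median log2 fold change of 6.14. Mki67, which coats mitotic chromosomes, was at 1.92, 0.279, 1.26, 2.27 and 0 CPM in the 5 non-GC libraries and from 185 to 571 CPM (median 305) in the 6 GC libraries (log2 fold change 8.22, standard error 0.70, edgeR adjusted p = 2.5e-06). The spindle motor gene Kif11 was at 0.860, 0.124, 2.68, 0.158 and 0.543 CPM in the 5 non-GC libraries and from 146 to 351 CPM (median 236) in the 6 GC libraries (log2 fold change 8.08, standard error 0.66, edgeR adjusted p = 1.9e-06). No non-GC library came near the GC range for either gene, and non-GC replicate 3 was the highest of its group for Kif11. Aspm, which focuses spindle poles, was at 29.8 to 87.6 CPM in GC and 0 to 0.589 CPM in non-GC libraries (log2 fold change 8.34).

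Replication and its supplies moved the same way by less. Of 46 tested DNA replication genes, 39 were called higher and 0 lower by edgeR (1 at an unadjusted p under 0.05, 1 at such an FDR, 0 by DESeq2 or limma-voom), with a median of 2.22. Cdc6, which loads the replicative helicase, was at 98.3 to 169 CPM in GC and 0.0631 to 1.95 CPM in non-GC libraries (log2 fold change 7.17, standard error 0.48, edgeR adjusted p = 2.5e-07), and Orc1, of the origin recognition complex, at 24.5 to 42.1 CPM in GC and 0.599 to 1.89 CPM in non-GC libraries (log2 fold change 5.04). Of 29 tested genes of one-carbon metabolism and nucleotide synthesis, 24 were called higher and 1 lower (median 1.11). Rrm2, the ribonucleotide reductase subunit made for S phase, was at 9.17, 11.7, 8.57, 10.4 and 6.07 CPM in the 5 non-GC libraries and from 477 to 1075 CPM (median 644) in the 6 GC libraries (log2 fold change 6.25, standard error 0.28, edgeR adjusted p = 7.1e-09). Its paralogue Rrm2b, which serves cells outside S phase, was not called (log2 fold change 0.51, standard error 0.12, edgeR adjusted p = 0.00163) and its groups overlapped at 31.3 to 46.8 CPM in GC and 22.2 to 32.2 CPM in non-GC libraries. Without GC replicate 6 Rrm2b was called, at 0.59. The thymidylate synthase gene Tyms rose by 4.12 on the log2 scale. Dhodh, a mitochondrial enzyme of pyrimidine synthesis, fell by 0.60, a change close to the 1.5-fold threshold. It was no longer called with DESeq2 (-0.58), without non-GC replicate 4 (-0.53) or without GC replicates 3, 4 or 5 (-0.55, -0.57 and -0.58).

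Most regulators of the cycle rose. Among 27 tested cyclins, CDKs, E2F factors and pocket proteins, 21 were called higher and 2 lower (median 1.22). Ccna2, the S and G2 phase cyclin, was at 203 to 488 CPM in GC and 1.05 to 3.34 CPM in non-GC libraries (log2 fold change 7.36), and E2f7, the partner of E2f8, at 16.1 to 42.1 CPM in GC and 0 to 0.651 CPM in non-GC libraries (7.44). Of the D cyclins, Ccnd3 was at 539 to 668 CPM in GC and 131 to 219.7 CPM in non-GC libraries (log2 fold change 1.99, standard error 0.13, edgeR adjusted p = 3.7e-08) and Ccnd2 at 83.9 to 246 CPM in GC and 75.0 to 83.8 CPM in non-GC libraries (log2 fold change 1.12, standard error 0.24, edgeR adjusted p = 0.00125), both called higher, while Ccnd1, named after its value was seen, was not called (log2 fold change 1.06, edgeR adjusted p = 0.198). The list's 2 genes called lower were Cdkn1b and Rbl2: Cdkn1b, which encodes the CDK inhibitor p27, was at 5.50, 5.27, 5.36, 5.02 and 5.87 CPM in the 5 non-GC libraries and from 1.33 to 3.07 CPM (median 1.72) in the 6 GC libraries (log2 fold change -1.47, standard error 0.23, edgeR adjusted p = 6.9e-05), with no overlap, and the pocket protein gene Rbl2 fell by 0.99 on the log2 scale.

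Most genes tied to quiescence fell. Of 24 tested, 17 were called lower and 0 higher by edgeR (3 at an unadjusted p under 0.05, 3 at such an FDR, 0 by DESeq2 or limma-voom), with a median of -1.0. Tsc22d3, a glucocorticoid-induced repressor, was at 874, 898, 601, 1405 and 1142 CPM in the 5 non-GC libraries and from 58.3 to 309 CPM (median 141) in the 6 GC libraries (log2 fold change -2.66, standard error 0.42, edgeR adjusted p = 2.3e-04). Pik3ip1, an inhibitor of PI3 kinase, was at 8.85 to 74.7 CPM in GC and 92.6 to 231 CPM in non-GC libraries (-2.49), and the transcription factor gene Klf4 at 0.0387 to 0.132 CPM in GC and 0.543 to 2.24 CPM in non-GC libraries (-3.50). None of these 3 genes overlapped between the groups. Of the nuclear lamins, Lmnb1 rose by 2.96 (134 to 299 CPM in GC and 19.5 to 29.8 CPM in non-GC libraries), while Lmna showed no call (log2 fold change -0.03, standard error 0.45, edgeR adjusted p = 0.956), and the sign of its fold change turned in several alternatives.

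Promoters of the division genes were searched for short motifs in the 250 bases before the start, on both strands, with sequences from RefSeq on GRCm38.p6. They are shown because these members moved together, and a match describes letters only. CCAAT, the CCAAT box, was in 32 of 41 promoters of the mitosis list (78.0%; 38 of 44 members matched the reference by symbol and 29 held it), beside 33.8% of all 32851 promoters. TTTGAA, the cell cycle homology region, was in 15 of 41 (36.6%, 13 members), beside 16.0% of all. Both motifs were in 14 of 41 (34.1%, 12 members), beside 5.55% of all. For the replication list, 37 of 46 members matched, with 45 promoters. TTCCCGC was in 9 of them (20%, 8 members) beside 3.82% of all, TTTGGCG in 4 (8.89%, 4 members) beside 1.26%, and both in 1 (2.22%), that of Pola1, beside 0.134%. These 2 spellings are forms of the E2F site, matches of different motifs were allowed to overlap, and no test was made. The lines below give 3 mitosis and 3 replication promoters, 5′ to 3′ on the gene's strand, with the motifs of their list in capitals (also where the motif reads on the other strand). Every promoter shown holds a motif of its list, and promoters with both motifs were put first, so the examples are typical of neither list. All 3 mitosis promoters shown hold both motifs, as 14 of 41 on that list do. Mki67 is at chr7:135716380-135716629 (minus strand), Kif11 at chr19:37376132-37376381 (plus strand), Ccnb2, the mitotic cyclin, at chr9:70421555-70421804 (minus strand), Pola1, the DNA polymerase alpha subunit, at chrX:93632156-93632405 (minus strand), Cdc6 at chr11:98907901-98908150 (plus strand) and Mcm5, a helicase subunit, at chr8:75109259-75109508 (plus strand).
Mki67: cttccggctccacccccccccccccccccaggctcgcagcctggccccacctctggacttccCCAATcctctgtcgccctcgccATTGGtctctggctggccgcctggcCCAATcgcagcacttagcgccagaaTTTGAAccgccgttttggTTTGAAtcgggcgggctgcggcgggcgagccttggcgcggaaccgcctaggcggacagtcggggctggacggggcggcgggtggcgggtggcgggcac
Kif11: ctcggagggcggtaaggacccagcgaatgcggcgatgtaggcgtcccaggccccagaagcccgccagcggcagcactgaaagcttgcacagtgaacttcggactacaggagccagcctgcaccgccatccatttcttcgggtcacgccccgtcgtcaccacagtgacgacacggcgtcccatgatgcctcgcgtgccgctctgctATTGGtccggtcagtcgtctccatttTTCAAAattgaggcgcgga
Ccnb2: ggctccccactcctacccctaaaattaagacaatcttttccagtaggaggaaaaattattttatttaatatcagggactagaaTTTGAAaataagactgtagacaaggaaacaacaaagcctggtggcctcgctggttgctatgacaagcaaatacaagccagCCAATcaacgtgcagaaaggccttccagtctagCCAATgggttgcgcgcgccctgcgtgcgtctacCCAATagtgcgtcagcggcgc
Pola1: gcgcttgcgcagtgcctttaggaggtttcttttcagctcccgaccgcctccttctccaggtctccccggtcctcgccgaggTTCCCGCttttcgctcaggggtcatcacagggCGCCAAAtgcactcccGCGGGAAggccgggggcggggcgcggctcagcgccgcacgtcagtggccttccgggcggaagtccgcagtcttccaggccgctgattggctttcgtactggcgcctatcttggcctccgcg
Cdc6: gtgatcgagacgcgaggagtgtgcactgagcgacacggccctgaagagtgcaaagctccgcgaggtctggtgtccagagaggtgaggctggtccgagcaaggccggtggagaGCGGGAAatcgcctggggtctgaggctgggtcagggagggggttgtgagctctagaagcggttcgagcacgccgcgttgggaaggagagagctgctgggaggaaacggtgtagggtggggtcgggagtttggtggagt
Mcm5: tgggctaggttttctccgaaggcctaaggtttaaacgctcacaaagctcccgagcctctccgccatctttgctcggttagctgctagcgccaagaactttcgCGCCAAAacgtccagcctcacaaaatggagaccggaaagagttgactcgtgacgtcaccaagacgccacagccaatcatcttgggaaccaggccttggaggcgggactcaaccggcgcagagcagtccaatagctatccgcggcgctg
For Cdc6 the annotations disagree: GENCODE M21 starts the gene at 98907801, so all 250 bases shown lie inside it, and before the start of RefSeq only. Counted from the RefSeq start, the first base of CCAAT lay at -188 and -141 in Mki67 on the gene's strand and at -162 on the other strand, and that of TTTGAA at -116 and -98. In Pola1, TTCCCGC began at -169 and, on the other strand, at -115, and TTTGGCG at -131 on the other strand.

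The dark zone genes that rose were members of other lists, and light zone genes moved both ways. Of 12 tested dark zone genes, 10 were called higher and 1 lower (median 5.85). Of the 10 gains, 8 are also counted in the mitosis list, 1 in the GC list and 1 in the hypermutation list. They were led by Hmmr (7.80), Bub1 (7.54) and the kinase gene Plk1 (7.32, at 138 to 331 CPM in GC and 0.0310 to 3.21 CPM in non-GC libraries). The 2 dark zone genes in none of these lists did not rise. Foxo1, named after its value was seen, was not called, its fold change being under 1.5 (log2 fold change -0.50, edgeR adjusted p = 5.4e-05). Cxcr4, the receptor that draws cells into the dark zone, was lower in GC cells: it was at 67.5, 73.3, 46.2, 67.4 and 84.4 CPM in the 5 non-GC libraries and from 34.6 to 49.4 CPM (median 39.7) in the 6 GC libraries (log2 fold change -0.73, standard error 0.14, edgeR adjusted p = 4.8e-04), and the groups overlapped. Of 21 tested light zone genes, 6 were called higher and 10 lower (median -0.30). The costimulatory gene Cd86 was at 136 to 241 CPM in GC and 52.2 to 92.6 CPM in non-GC libraries (log2 fold change 1.31, standard error 0.18, edgeR adjusted p = 3.3e-05) with no overlap, while Egr3, an early response factor, was at 2.49 to 7.27 CPM in GC and 23.4 to 30.6 CPM in non-GC libraries (log2 fold change -2.46, standard error 0.21, edgeR adjusted p = 4.4e-07). Bcl2a1d, a survival gene, rose by 1.48, a value that is uncertain because its copies share reads. Both zones are in the sorted GC gate, so the comparison does not separate them.

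Genes of the resting follicular and memory state were lower as a group. Of 25 tested, 1 was called higher and 19 lower, with a median of -1.39. Klf3, a repressor of the Krüppel-like family, was at 172, 176, 156, 171 and 178 CPM in the 5 non-GC libraries and from 16.2 to 59.6 CPM (median 30.7) in the 6 GC libraries (log2 fold change -2.45, standard error 0.30, edgeR adjusted p = 2.3e-05), with no overlap. Cd44, an adhesion receptor for hyaluronan, was the list's gene called higher, at 39.6, 33.8, 37.2, 35.6 and 37.1 CPM in the 5 non-GC libraries and from 89.0 to 152 CPM (median 101) in the 6 GC libraries (log2 fold change 1.56, standard error 0.13, edgeR adjusted p = 2.5e-07). GC replicate 2 was the highest for Cd44.

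DNA repair genes gained in part. Of 26 tested genes of hypermutation and class switching, 14 were called higher and 1 lower, and 11 were not called (median 0.62). Exo1, the exonuclease of mismatch repair, was at 3.44, 2.17, 4.42, 2.93 and 2.65 CPM in the 5 non-GC libraries and from 43.1 to 65.8 CPM (median 56.3) in the 6 GC libraries (log2 fold change 4.15, standard error 0.20, edgeR adjusted p = 3.3e-09). Fam72a, which controls the uracil glycosylase UNG2, was at 5.57 to 12.5 CPM in GC and 0.271 to 1.04 CPM in non-GC libraries (log2 fold change 3.78, standard error 0.38, edgeR adjusted p = 1.5e-06). Both genes were above every non-GC library in each GC library. Shld2, of the shieldin complex that guards broken ends, was called lower by -0.61 with overlap, and that call ended without non-GC replicates 3 (-0.55) or 4 (-0.57) and without GC replicates 1 (-0.57), 5 (-0.55) or 6 (-0.57). Of 28 tested genes of homologous recombination and the Fanconi pathway, 21 were called higher and 0 lower by edgeR (1 at an unadjusted p under 0.05, 1 at such an FDR, 0 by DESeq2 or limma-voom; median 1.48), and 7 were not called. The helicase gene Brip1 was at 35.5 to 59.6 CPM in GC and 0.0310 to 1.48 CPM in non-GC libraries (log2 fold change 6.18), Rad54b, a motor of strand exchange, at 20.0 to 29.8 CPM in GC and 0.405 to 0.916 CPM in non-GC libraries (5.43) and the nuclease gene Eme1 at 22.3 to 39.1 CPM in GC and 0.682 to 2.21 CPM in non-GC libraries (4.89).

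Immunoglobulin transcripts shifted from Ighm and Ighd to Ighg1, Ighg2b, Ighg2c and Ighe, and V segment use was less even. These are shares of RNA, not of cells, and the part of plasma cells in them was not tested. Immunoglobulin genes took 3.71% to 7.37% of counts in GC libraries and 1.59% to 2.00% in non-GC libraries. Of heavy chain constant region counts, Ighm took 6.80% to 17.7% in GC against 52.4% to 60.2% in non-GC libraries, and Ighd, the IgD of naive cells, 0.382% to 3.29% in GC against 31.1% to 42.4% in non-GC libraries. The IgG1 gene Ighg1 took 24.5% to 72.6% in GC against 0.517% to 8.07% in non-GC libraries, Ighg2b 15.2% to 43.0% in GC against 0.877% to 6.43% in non-GC libraries and Ighg2c 3.55% to 19.4% in GC against 0.421% to 1.52% in non-GC libraries. In no case did the groups overlap. Ighe took 0.269% to 1.60% in GC against 0% to 0.0946% in non-GC libraries, while Ighg3 (0.164% to 0.939% in GC against 0.0416% to 0.445% in non-GC libraries) and Igha (0.0362% to 0.287% in GC against 0.0284% to 0.0609% in non-GC libraries) stayed small and overlapped. The mix differed among GC libraries: replicates 2 and 3 had 72.6% and 61.3% Ighg1, and the other 4 had 24.5% to 36.9%.

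As levels, the switched isotypes rose by large factors. Ighg1 was at 153, 447, 1063, 95.2 and 51.2 CPM in the 5 non-GC libraries and from 7649.6 to 35653 CPM (median 8952) in the 6 GC libraries (log2 fold change 5.36, standard error 0.96, edgeR adjusted p = 6.0e-04). Ighg2b was at 6741 to 13412 CPM in GC and 86.9 to 846 CPM in non-GC libraries (log2 fold change 5.06, standard error 0.70, edgeR adjusted p = 8.9e-05), and Ighg2c at 1650.3 to 6886 CPM in GC and 41.7 to 200.3 CPM in non-GC libraries (log2 fold change 5.27, standard error 0.65, edgeR adjusted p = 4.0e-05). Non-GC replicate 3 held the most Ighg2b of its group, and it was the only non-GC library with any Ighe (12.5 CPM), where GC libraries had 73.1 to 518 CPM (log2 fold change 6.97, standard error 1.49, edgeR adjusted p = 0.00209). Ighg3 (2.52, with overlap) and Igha (3.32) rose too. Ighd fell, from 3672 to 4373 CPM to 188 to 1170.5 CPM (log2 fold change -2.89, standard error 0.41, edgeR adjusted p = 9.9e-05). The level of Ighm fell far less than its share (log2 fold change -0.59, standard error 0.15, edgeR adjusted p = 0.00358), with overlap, and was no longer called with DESeq2 (-0.58), RLE scaling (-0.58), sex as a covariate (-0.58), or without non-GC replicate 3 (-0.53) or GC replicates 1 (-0.55), 2 (-0.55) or 3 (-0.52). Light chains split: the kappa gene Igkc rose (2.06, 9361 to 18150.0 CPM in GC and 2722 to 3473 CPM in non-GC libraries) and the lambda gene Iglc2 fell (-1.18, 203 to 415 CPM in GC and 610.4 to 687 CPM in non-GC libraries). Iglc1 was called higher (1.34, with overlap) and Iglc3 lower (-0.62). The call of Iglc3 ended without GC replicates 3 (-0.53) or 4 (-0.58), and in a fit of all 8 groups the calls of both ended (Iglc1 1.28 and Iglc3 -0.69). The lambda genes are near copies, so their values are uncertain.

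Use of V segments was summarised as an effective number, the exponential of Shannon entropy of the counts, which equals the number of segments if all were used evenly. For 138 heavy chain segments it was 57.7, 60.1, 55.4, 58.4 and 58.9 in non-GC libraries and 36.9, 17.4, 31.5, 36.2, 31.9 and 33.8 in GC libraries. Means were 31.3 in GC and 58.1 in non-GC libraries, with standard deviations of 7.15 and 1.76, so the means differed by -26.8 (exact permutation over libraries, two-sided, p = 0.00216, adjusted p = 0.00216). For 129 kappa segments it was 56.4, 56.5, 57.6, 57.4 and 57.5 in non-GC libraries and 40.8, 21.5, 41.5, 37.5, 43.2 and 39.7 in GC libraries, a difference of -19.7 (same exact test, p = 0.00216, adjusted p = 0.00216). That p is the smallest that 462 arrangements of 6 against 5 libraries allow, and the p-values were adjusted over the 2 comparisons. Every GC library was below every non-GC library for both chains, and GC replicate 2 was the lowest. In that library Ighv7-3 took 26.3% of heavy V counts and Igkv6-20 22.0% of kappa V counts, where they took 0.525% to 2.08% and 0.584% to 2.60% in the other 10 libraries. Other leading segments differed by library: Ighv8-8 reached 10.5% in GC replicate 1, Ighv1-64 14.1% and 15.7% in replicates 3 and 5, Ighv1-5 10.3% in replicate 4, and Igkv8-30 13.6% in replicate 4. V segments share reads with near copies and carry mutations in GC cells, so shares of single segments are uncertain. These segments were picked after their values were seen.

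**Figure D4:**
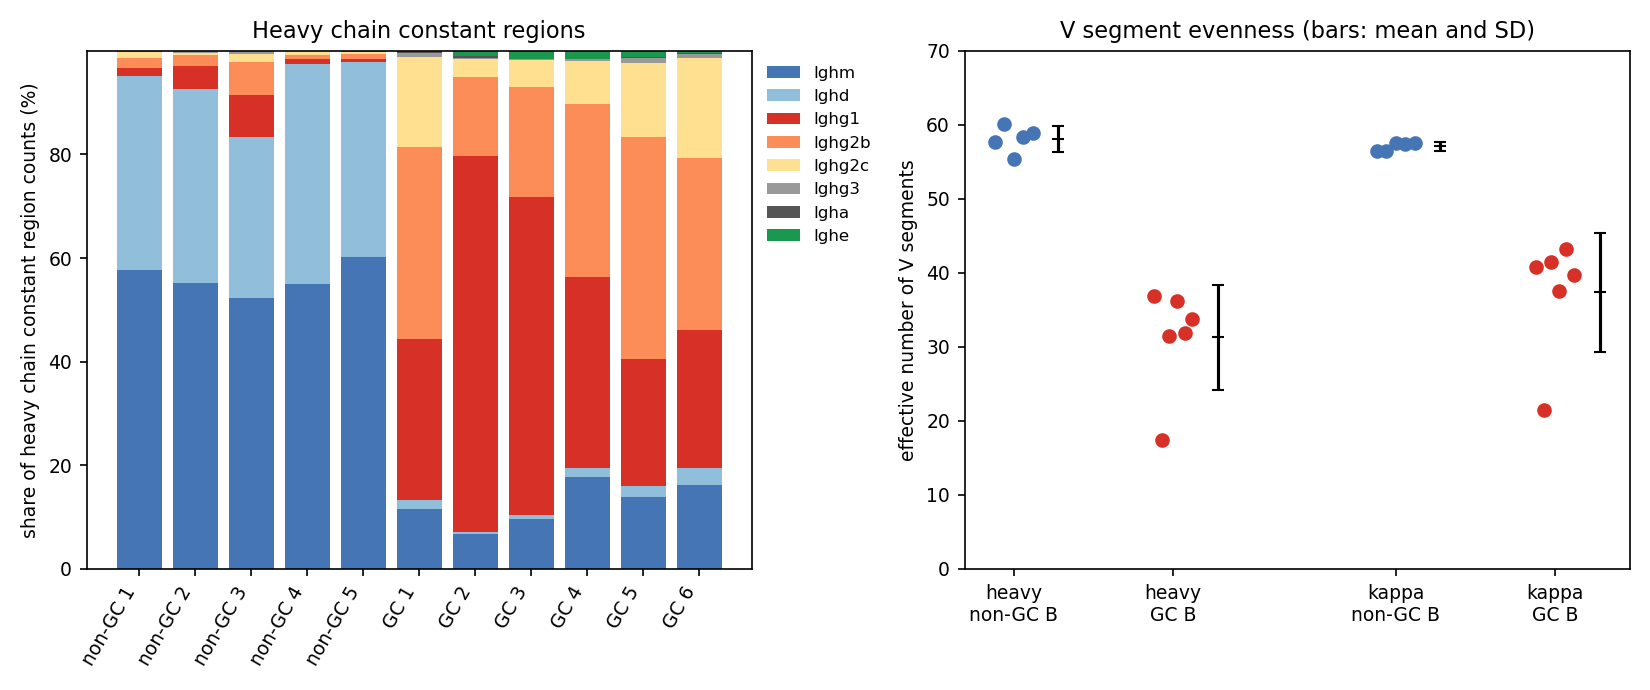
Left, the share of heavy chain constant region counts taken by each isotype in each WT library. Right, the effective number of heavy and kappa V segments in each library with mean and standard deviation, 17.4 to 36.9 in GC against 55.4 to 60.1 in non-GC libraries for heavy chains.

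Metabolic genes gained in several branches, each by less than division genes. Of 78 tested subunits of the respiratory chain and ATP synthase, 63 were called higher and 0 lower by edgeR (0 at an unadjusted p under 0.05, 0 by DESeq2 or limma-voom), with a median of 0.88. The ATP synthase gene Atp5g3 was at 100.4, 94.2, 104, 95.0 and 102 CPM in the 5 non-GC libraries and from 243 to 339 CPM (median 287) in the 6 GC libraries (log2 fold change 1.55, standard error 0.09, edgeR adjusted p = 1.0e-08), and Uqcr10, of complex III, at 40.8 to 60.1 CPM in GC and 18.2 to 22.4 CPM in non-GC libraries (1.3). Ndufb1-ps, listed with complex I although its symbol carries a pseudogene suffix, was at 57.1 to 72.9 CPM in GC and 12.4 to 22.8 CPM in non-GC libraries (2.02). It was the only member of the respiratory chain list called with a fold change over 4. Of 19 tested tricarboxylic acid cycle genes, 12 were called higher and 0 lower by edgeR (0 at an unadjusted p under 0.05, 0 by DESeq2 or limma-voom; median 0.66), led by Idh2 (1.54), Sdhb (1.26) and Fh1 (1.04). Idh2, a mitochondrial dehydrogenase, was at 91.8 to 133 CPM in GC and 33.6 to 38.0 CPM in non-GC libraries. With total count scaling 7 of the cycle's genes were called. Of 19 tested fatty acid oxidation genes, 5 were called higher and 1 lower (median 0.15), a share of calls below that of all genes. Those higher included Ehhadh (1.49), an enzyme of peroxisomes, and the electron carriers Etfb (1.19) and Etfa (1.09). Eci1, an isomerase, was called lower (-0.63), and not without GC replicate 3 (-0.56).

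Most glycolysis genes rose while 2 glucose transporters fell. Of 19 tested, 12 were called higher and 2 lower (median 1.11), and the lower ones were Slc2a1 (47.2 to 70.8 CPM in GC and 86.4 to 111 CPM in non-GC libraries, log2 fold change -0.68, standard error 0.11, edgeR adjusted p = 8.4e-05) and Slc2a3 (23.0 to 32.9 CPM in GC and 54.2 to 64.5 CPM in non-GC libraries, log2 fold change -1.15, standard error 0.09, edgeR adjusted p = 2.5e-07), which carry glucose into the cell. Tpi1, triosephosphate isomerase, was at 101, 93.7, 113, 102 and 105 CPM in the 5 non-GC libraries and from 444 to 549 CPM (median 528) in the 6 GC libraries (log2 fold change 2.33, standard error 0.08, edgeR adjusted p = 2.7e-10). Ldha, which makes lactate, was at 1251 to 1594 CPM in GC and 429.5 to 496 CPM in non-GC libraries (log2 fold change 1.60, standard error 0.08, edgeR adjusted p = 3.2e-09), and its paralogue Ldhb had 0 to 3.87 CPM over the WT libraries and was not tested. Slc16a3, which exports lactate, was at 2.17 to 6.85 CPM in GC and 0.0860 to 0.915 CPM in non-GC libraries (3.65). Of the hexokinases, Hk2 was at 2.98, 2.88, 0.784, 6.03 and 1.80 CPM in the 5 non-GC libraries and from 13.0 to 33.0 CPM (median 15.3) in the 6 GC libraries (log2 fold change 2.66, standard error 0.45, edgeR adjusted p = 2.6e-04). Hk1 was not called, its fold change being under 1.5 (log2 fold change -0.49, standard error 0.08, edgeR adjusted p = 1.2e-04), though its GC libraries all lay below its non-GC libraries.

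Of 29 tested genes of cholesterol and fatty acid synthesis, 17 were called higher and 1 lower (median 0.94). Idi1 (1.99) and Sqle (1.88), enzymes on the way to cholesterol, rose, with Sqle at 101 to 169 CPM in GC and 33.2 to 41.5 CPM in non-GC libraries. Scd1, the desaturase that makes oleate, was the list's gene called lower, at 1220.3, 1179.6, 973, 1082 and 1184 CPM in the 5 non-GC libraries and from 265 to 564 CPM (median 349) in the 6 GC libraries (log2 fold change -1.57, standard error 0.19, edgeR adjusted p = 1.1e-05), and the groups did not overlap.

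Protein synthesis and secretion differed in extent. Of 86 tested ribosomal protein genes, 30 were called higher and 1 lower (median 0.47). That is a share of calls of 36.0%, below the 47.5% of all genes (24.6% higher and 22.9% lower). The gains were led by Rps27l (1.82), Rpl36al (1.18) and Rpl28 (1.07), and Rps27 was called lower (-0.74). RSEM splits reads between such genes and their pseudogenes, so single values are uncertain. Of 25 tested ribosome biogenesis genes, 6 were called higher and 0 lower by edgeR (4 at an unadjusted p under 0.05, 3 at such an FDR, 0 by DESeq2 or limma-voom; median 0.31), a share near the 24.6% of all genes, with Nhp2 (1.04), Gar1 (1.04) and Npm1 (0.92) the first. Of 26 tested ER chaperone and secretion genes, 20 were called higher and 0 lower by edgeR (0 at an unadjusted p under 0.05, 0 by DESeq2 or limma-voom; median 1.11). Edem1, which sends misfolded proteins to breakdown, was at 161, 194, 237, 166 and 163 CPM in the 5 non-GC libraries and from 847 to 2006 CPM (median 1038) in the 6 GC libraries (log2 fold change 2.69, standard error 0.23, edgeR adjusted p = 7.8e-07). The chaperone genes Creld2 and Sdf2l1 rose by 2.69 and 2.20 on the log2 scale.

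**Figure D5:**
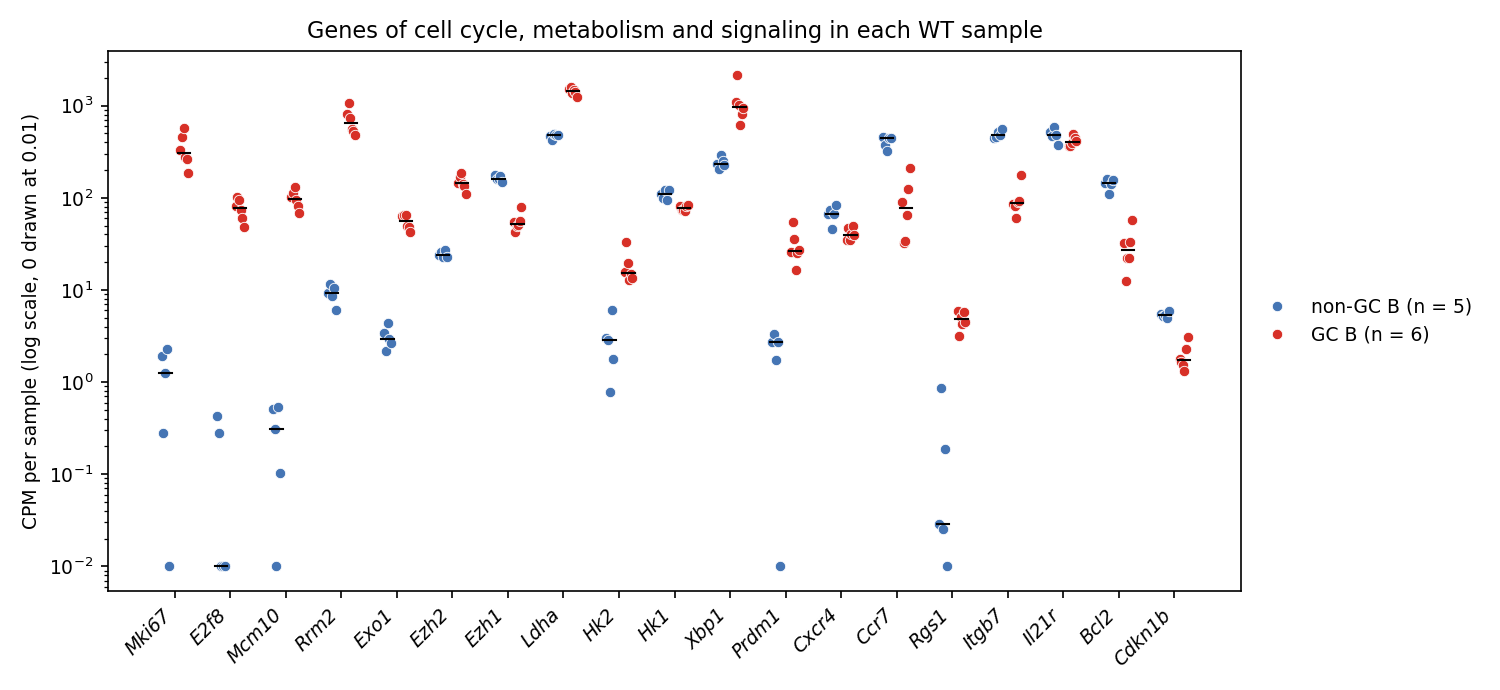
CPM of 19 genes of cell cycle, metabolism and signaling in each WT library on a log scale, 1 point for each of 5 non-GC and 6 GC libraries, with a value of 0 drawn at 0.01. The paralogues Ezh2 and Ezh1 show opposite shifts, with Ezh2 at 109 to 185 CPM and Ezh1 at 42.2 to 80.5 CPM in GC libraries.

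Transcription factors of B cells moved both ways. Of 28 tested, 7 were called higher and 6 lower (median 0.03, whose sign changed in 4 of 22 alternative computations), shares near those of all genes (24.6% and 22.9%). The higher ones included factors of plasma cells. Xbp1, which drives secretion, was at 230.2, 207, 293, 254 and 227 CPM in the 5 non-GC libraries and from 622 to 2139 CPM (median 972) in the 6 GC libraries (log2 fold change 2.19, standard error 0.28, edgeR adjusted p = 3.4e-05). Prdm1, which encodes BLIMP1, was at 2.69, 3.32, 1.72, 2.71 and 0 CPM in the 5 non-GC libraries and from 16.6 to 54.8 CPM (median 26.7) in the 6 GC libraries (log2 fold change 3.88, standard error 0.67, edgeR adjusted p = 3.8e-04). GC replicate 2, which also had the highest plasma cell sum, was the highest for both genes, and neither overlapped. Both genes are members of the plasma cell list, so their match with that sum is partly built in. Both genes were also called without GC replicate 2. Id2, an inhibitor of E proteins, rose by 2.53. Of the lower ones, Ebf1, which sets B cell identity, was at 360.0, 354, 325, 357 and 334 CPM in the 5 non-GC libraries and from 99.7 to 159 CPM (median 134) in the 6 GC libraries (log2 fold change -1.39, standard error 0.10, edgeR adjusted p = 8.8e-08), and Hhex was at 25.3 to 83.6 CPM in GC and 196 to 232 CPM in non-GC libraries (-2.05).

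Chromatin genes moved both ways. Of 30 tested Polycomb and DNA methylation genes, 12 were called higher and 8 lower (median -0.01, whose sign changed in 10 of 22 alternative computations). Ezh2, the histone methyltransferase of Polycomb in dividing cells, was at 24.0, 26.1, 22.8, 27.2 and 22.6 CPM in the 5 non-GC libraries and from 109 to 185 CPM (median 143) in the 6 GC libraries (log2 fold change 2.59, standard error 0.13, edgeR adjusted p = 3.8e-09). Its paralogue Ezh1 was at 178, 159, 159.8, 171 and 148 CPM in the 5 non-GC libraries and from 42.2 to 80.5 CPM (median 52.4) in the 6 GC libraries (log2 fold change -1.56, standard error 0.13, edgeR adjusted p = 4.1e-07). The pair moved in opposite directions with no overlap in either gene. Among the list's largest changes were also the gains of the accessory factor gene Phf19, at 59.9 to 109 CPM in GC and 0.837 to 4.68 CPM in non-GC libraries (4.92), and the chromodomain gene Cbx2 (3.42), and the losses of Phf1, at 7.68 to 24.3 CPM in GC and 93.8 to 119.9 CPM in non-GC libraries (-2.86), and Cbx7 (-2.23). Uhrf1, which brings DNA methyltransferase to new strands, was at 334 to 530.4 CPM in GC and 8.55 to 16.4 CPM in non-GC libraries (log2 fold change 5.14, standard error 0.19, edgeR adjusted p = 6.7e-10).

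Signaling and presentation lists were lower in GC cells. Of 34 tested B cell receptor and coreceptor genes, 1 was called higher and 14 lower (median -0.30), and without the sort gene Ptprc 1 of 33 higher and 13 lower, with a median of -0.28. Vav3, a guanine nucleotide exchange factor, was at 37.2, 29.8, 38.5, 30.4 and 37.8 CPM in the 5 non-GC libraries and from 4.48 to 13.2 CPM (median 5.65) in the 6 GC libraries (log2 fold change -2.30, standard error 0.25, edgeR adjusted p = 4.2e-06). Malt1, the protease of the NF-kB route, fell by 1.20 on the log2 scale, and Siglecg, an inhibitory coreceptor, by 1.19. The kinase gene Fyn was the list's gene called higher (0.62), and not with upper quartile (0.53) or total count scaling (0.53), in a fit of all 8 groups (0.55) or without non-GC replicate 2 (0.53). Of 16 tested MHC class II genes, 11 were called lower and 0 higher by edgeR (0 at an unadjusted p under 0.05, 0 by DESeq2 or limma-voom; median -0.79). H2-DMb1, which helps load peptides, was at 276, 317, 337, 327 and 281 CPM in the 5 non-GC libraries and from 84.3 to 116 CPM (median 91.9) in the 6 GC libraries (log2 fold change -1.69, standard error 0.09, edgeR adjusted p = 1.1e-08). The genes for its inhibitor, H2-Oa and H2-Ob, fell as well, by 1.24 and 1.37.

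Of 19 tested NF-kB subunits and inhibitors, 1 was called higher and 13 lower (median -0.86). Nfkbid (-1.50), Bcl3 (-1.40) and Nfkbiz (-1.34), nuclear cofactors of the IkB family, fell, with Bcl3 at 34.9 to 92.6 CPM in GC and 122 to 178 CPM in non-GC libraries. Traf1, an adaptor of TNF receptors, was at 93.5 to 129 CPM in GC and 45.7 to 56.2 CPM in non-GC libraries (log2 fold change 1.14, standard error 0.09, edgeR adjusted p = 1.2e-07). Of 16 tested immediate early genes, 9 were called lower and 0 higher by edgeR (1 at an unadjusted p under 0.05, 1 at such an FDR, 0 by DESeq2, 1 by limma-voom; median -0.91). Nr4a1, which responds to antigen receptor signals, was at 115, 93.7, 49.7, 87.0 and 68.7 CPM in the 5 non-GC libraries and from 7.21 to 23.7 CPM (median 16.4) in the 6 GC libraries (log2 fold change -2.41, standard error 0.30, edgeR adjusted p = 2.2e-05), with no overlap. Nr4a3 was called lower at near 0 levels (-3.07, at most 1.43 CPM, with overlap) and was not called by limma-voom.

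Interferon-stimulated genes were lower too, with wide spread. Of 22 tested, 1 was called higher and 14 lower (median -1.37). Their mean log2 CPM was 4.53, 5.70, 4.68, 6.70 and 5.69 in the 5 non-GC libraries and 3.18 to 5.23 in GC libraries, so the groups overlapped and non-GC replicate 4 was the highest. Without that library 10 members were called, with a median of -0.89. Ifit3 was at 41.8, 164, 30.3, 579 and 192 CPM in the 5 non-GC libraries and from 7.15 to 68.8 CPM (median 25.3) in the 6 GC libraries (log2 fold change -2.58, standard error 0.86, edgeR adjusted p = 0.0221), and it was no longer called with limma-voom (-2.22), with no filter (-2.58) or without non-GC replicate 4 (-1.67). Mx2 (-2.33), an antiviral GTPase, and Rtp4 (-2.32) were called lower with overlap. Isg20, an exonuclease also present in plasma cells, went the other way, at 63.0 to 137 CPM in GC and 19.7 to 51.6 CPM in non-GC libraries (log2 fold change 1.40, standard error 0.28, edgeR adjusted p = 9.2e-04), GC replicate 2 being the highest. Non-GC replicates 4 and 5 also had the highest NK and dendritic cell sums of their group. Non-GC replicate 2 had an interferon mean as high as that of replicate 5 (5.70 and 5.69), with low NK and dendritic cell sums (5.55 and 4.15 CPM). The part of those cells was not tested.

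Contact with T cells was represented unevenly. Of 31 tested genes for help receptors and ligands, 7 were called higher and 15 lower (median -0.47). Icosl, the ligand for ICOS on helper T cells, was at 459, 462, 428, 495 and 427 CPM in the 5 non-GC libraries and from 90.5 to 138 CPM (median 104) in the 6 GC libraries (log2 fold change -2.08, standard error 0.11, edgeR adjusted p = 5.3e-09). Every GC library was below every non-GC library. Il13ra1 rose from low levels (1.87, 2.04 to 5.33 CPM in GC and 0 to 1.48 CPM in non-GC libraries). Cd80, a ligand of CD28, was called higher with overlap (1.12 to 3.68 CPM in GC and 0.0946 to 1.76 CPM in non-GC libraries, log2 fold change 1.88, standard error 0.65, edgeR adjusted p = 0.0216), and not without GC replicate 1 (1.66).

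Chemokine receptor genes moved both ways. Of 15 tested chemokine receptor genes, 6 were called higher and 5 lower (median 0.41, whose sign changed in 1 of 22 alternative computations). Ccr7, which guides cells to T cell zones, was at 452, 374, 321, 445 and 445 CPM in the 5 non-GC libraries and from 32.2 to 213 CPM (median 77.5) in the 6 GC libraries (log2 fold change -2.13, standard error 0.46, edgeR adjusted p = 0.00207). Cxcr3, the receptor for interferon-induced chemokines, was at 1.20, 0.651, 2.1, 4.10 and 3.56 CPM in the 5 non-GC libraries and from 53.4 to 213 CPM (median 123) in the 6 GC libraries (log2 fold change 5.85, standard error 0.57, edgeR adjusted p = 6.5e-06). Ackr4, which removes the CCR7 ligands, was at 0.344, 0.899, 0.101, 0.410 and 0 CPM in the 5 non-GC libraries and from 17.3 to 29.7 CPM (median 26.5) in the 6 GC libraries (log2 fold change 6.16, standard error 0.57, edgeR adjusted p = 1.9e-06). None of these 3 receptors overlapped between the groups. Ccr10, known from IgA plasma cells, had 2 counts in the non-GC group and 1.22 to 13.3 CPM in GC libraries, a ratio of 401 (95% counting interval 111 to 3308). Ccr9, a gut homing receptor, was called lower with overlap (-3.79), and was not called by limma-voom (-2.84). It was at 0.487, 0.744, 0.683, 9.81 and 17.7 CPM in the non-GC libraries and at most 0.913 CPM in GC libraries, so its high values lie in non-GC replicates 4 and 5, which also had the highest NK and dendritic cell sums of their group. The part of those cells was not tested.

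Of 26 tested RGS and G protein genes, which shape the signals of such receptors, 10 were called higher and 5 lower (median 0.36). Rgs1 was at 3.20 to 5.87 CPM in GC and 0 to 0.868 CPM in non-GC libraries (log2 fold change 4.43, standard error 0.80, edgeR adjusted p = 3.6e-04), and Rgs10 at 7.55 to 12.3 CPM in GC and 1.26 to 2.34 CPM in non-GC libraries (2.65), beside the gain of Rgs13. Grk3, a kinase that switches receptors off, was called lower at low levels (-2.37, 0 to 1.17 CPM in GC and 1.19 to 5.67 CPM in non-GC libraries), and so was Gna15, a G protein alpha subunit (-1.19, 9.53 to 14.2 CPM in GC and 20.4 to 30.5 CPM in non-GC libraries). The Grk3 call ended with the replicate number as a block (-2.43), which joins libraries not known to come from 1 mouse.

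A homing integrin was among the losses. Of 19 tested integrin and adhesion genes, 6 were called higher and 8 lower (median -0.04, whose sign changed in 1 of 22 alternative computations). Itgb7, the gut homing integrin beta chain, was at 451, 458, 514, 479.8 and 555 CPM in the 5 non-GC libraries and from 60.9 to 175 CPM (median 87.7) in the 6 GC libraries (log2 fold change -2.33, standard error 0.22, edgeR adjusted p = 2.1e-06). All GC libraries were below all non-GC libraries, GC replicate 6 being the highest GC library. Itgam (1.77) and Vcam1 (1.66), which myeloid cells also express, were called higher at low levels with overlap. The Itgam call ended with no filter (1.76) and without non-GC replicate 2 (1.66), and that of Vcam1 in a fit of all 8 groups (1.61), without non-GC replicates 1 (1.51), 3 (1.56) or 5 (1.39) and without GC replicates 1 (1.64), 5 (1.52) or 6 (1.43). With the replicate number as a block, which joins libraries not known to come from 1 mouse, both calls ended (Itgam 1.82 and Vcam1 1.45).

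Glycan genes, which set surface marks such as GL7, moved both ways. Of 28 tested, 7 were called higher and 7 lower (median 0.01, whose sign changed in 10 of 22 alternative computations), shares near the 24.6% and 22.9% of all genes, and without Cmah 7 of 27 higher and 6 lower, with a median of 0.08. Cmah, which makes the sialic acid Neu5Gc, was at 229.8, 219, 189, 207 and 201 CPM in the 5 non-GC libraries and from 89.7 to 121 CPM (median 101) in the 6 GC libraries (log2 fold change -1.0, standard error 0.08, edgeR adjusted p = 3.2e-07), with no overlap. The antibody GL7 binds a sialic acid epitope that cells with little of this enzyme carry, so the gene is tied to the sort. Fut8, which adds core fucose, was at 20.8, 13.4, 32.4, 17.1 and 21.3 CPM in the 5 non-GC libraries and from 102 to 184 CPM (median 124) in the 6 GC libraries (log2 fold change 2.65, standard error 0.23, edgeR adjusted p = 1.1e-06), again with no overlap. St6galnac6 (2.13) and St3gal5 (1.74), sialyltransferases, rose, and Galnt10, which starts O-glycans, fell (-1.22).

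Genes of cell death and survival moved both ways. Of 26 tested BCL2 family and caspase genes, 12 were called higher and 4 lower (median 0.14), and without the sort gene Fas 11 of 25 higher and 4 lower, with a median of 0.10. Bcl2, which blocks the mitochondrial route to death, was at 143, 162, 109, 141 and 155 CPM in the 5 non-GC libraries and from 12.4 to 58.2 CPM (median 27.3) in the 6 GC libraries (log2 fold change -2.24, standard error 0.32, edgeR adjusted p = 9.1e-05). Its groups did not overlap. Birc3, an inhibitor of apoptosis, fell (-1.25, 91.9 to 153 CPM in GC and 257 to 363 CPM in non-GC libraries). Bcl2a1a was called higher (3.05) at 0.817 to 2.25 CPM in GC libraries, uncertain for its shared reads.

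Of 16 tested TNF and TNF receptor family genes, 6 were called higher and 5 lower (median -0.05, whose sign changed in 7 of 22 alternative computations), and without Fas 5 of 15 higher and 5 lower, with a median of -0.18. Tnfrsf17, which encodes the plasma cell receptor BCMA, was at 1.36 to 6.36 CPM in GC and 0 to 0.152 CPM in non-GC libraries (log2 fold change 5.85, standard error 0.78, edgeR adjusted p = 2.2e-05). Tnfsf14 had 1 count in the non-GC group and 0.399 to 0.877 CPM in GC libraries, a ratio of 94.8 (95% counting interval 17 to 3743). Cd27, a costimulatory receptor, was called lower with overlap (-1.85), and Tnfrsf18, which encodes GITR, was at 5.83 to 21.5 CPM in GC and 25.0 to 34.4 CPM in non-GC libraries (-1.49).

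The same contrast in S1PR4-/- mice, whose libraries are separate from the WT libraries, called 6447 of 13484 tested genes (47.8%), 3369 higher and 3078 lower. Of 13102 genes tested in both genotypes, 5398 were called in the same direction, which is 85.2% of the WT calls and 83.7% of the S1PR4-/- calls. Of the 178 named genes called in WT, 170 were called in the same direction in S1PR4-/- mice. Mef2b (6.02 in S1PR4-/-, 5.18 in WT), Bcl6 (0.78 and 0.64), Cxcr5 (-0.89 and -0.82) and Mki67 (8.51 and 8.22) were called in the same direction in both. Cxcr4 was not called in S1PR4-/- mice (-0.29). The difference between genotypes in the GC contrast, tested as an interaction in edgeR, passed an FDR of 0.05 in 0 of 14490 genes (0%). Unadjusted, 663 genes (4.58%) had a p under 0.05, and DESeq2 called 6 at the same FDR.

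Gna15, which lies beside S1pr4 in the genome, was the exception among named genes, being lower in WT GC cells and higher in S1PR4-/- GC cells. With all 4 groups scaled together, it was at 21.7, 30.1, 28.5, 23.8 and 20.2 CPM in WT non-GC libraries and 9.69, 9.88, 14.0, 11, 10.7 and 10.3 CPM in WT GC libraries. In S1PR4-/- mice it was at 0.0639, 2.00, 1.84 and 1.84 CPM in non-GC libraries and 2.44 to 5.91 CPM in GC libraries. Every S1PR4-/- library was below every WT library. The log2 fold change was -1.19 in WT and 1.58 in S1PR4-/- mice (edgeR adjusted p = 5.6e-06 and 0.0404). The interaction was 2.77 with an adjusted p of 0.445 in edgeR and 4.1e-04 in DESeq2.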

How the data were processed

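RNA of sorted B cells was captured on oligo-dT beads and sequenced. The authors used cutadapt 2.10 for trimming, STAR 2.5.3 for alignment and RSEM 1.3.0 for quantification, and deposited unscaled expected counts for each gene (8.83% of values are not whole). Symbols were matched to GENCODE M21, although the study names release M30, and 27 that read as dates were left as they are. The column labels gave the groups of the 11 WT B cell libraries. Counts were rounded, filtered with filterByExpr, scaled by TMM and tested with the quasi-likelihood test of edgeR 4.0.16 in R 4.3.3, with Benjamini-Hochberg adjustment over all tested genes. Standard errors were derived from its F statistic. DESeq2 1.42.0, limma 3.58.1, other scalings, filters and call rules were alternatives. Fits were tested on simulated data. Libraries held at least 26299429 counts, and the floor of 3 counts over the 5 non-GC libraries is 0.0179 CPM.

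Named genes were the 15 largest called gains and losses with a mean of at least 10 CPM in the higher group and no overlap, the GC list, the sort genes, in each of the 33 lists the 3 largest called changes and the 2 largest against the majority, immunoglobulin constant regions, and 9 pairs of paralogues. Some of these genes are not reported here. S1P receptors other than S1pr2, Klf2 and Gpr183 were left out. The members and lists were chosen with earlier results of these data known.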

Additional observations from a re-analysis of the deposited data

Results flagged for a closer look

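A sample was set apart when its gap to the nearest other sample of its group, divided by the range of the group, was above 0.71 with 5 samples or 0.63 with 6 (the 95% critical values in rounded form, that for 6 being just under 0.6251). This ratio was taken in 466 groups of values (233 items in each population), and 54 (11.6%) were above it. Chance alone gives about 1 in 20 such groups, and genes at 0 in all but 1 sample have a ratio of 1.

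GC replicate 2 was the highest of its group, far from the others, for the summed CPM of plasma cell genes (0.761, at 10585 CPM, nearest 6354), Xbp1 (0.684, at 2139 CPM, nearest 1102), Cd44 (0.636, at 152 CPM, nearest 112) and Hk2 (0.667, at 33.0 CPM, nearest 19.6). It was also far above them for Il13ra1 (0.796, at 5.33 CPM, nearest 2.71), Isg20 (0.736, at 137 CPM, nearest 82.4), Igkc (0.636, at 18150.0 CPM, nearest 12557) and Bcl6b (0.655, at 0.391 CPM, nearest 0.155). GC replicate 2 was the lowest of its group, far from the others, for heavy chain V segment evenness (0.723, at 17.4, nearest 31.5) and kappa chain V segment evenness (0.740, at 21.5, nearest 37.5). GC replicate 3 was the highest of its group, far from the others, for the mean log2 CPM of Polycomb genes (0.6251, at 6.05, nearest 5.89) and Gna15 (0.671, at 14.2 CPM, nearest 11.1). GC replicate 4 was the highest of its group, far from the others, for Tnfsf14 (0.645, at 0.877 CPM, nearest 0.569). GC replicate 4 was the lowest of its group, far from the others, for the mean log2 CPM of ribosomal protein genes (0.723, at 6.95, nearest 7.09) and Rpl28 (0.754, at 66.1 CPM, nearest 74.8). GC replicate 6 was the highest of its group, far from the others, for the summed CPM of macrophage genes (0.647, at 221 CPM, nearest 106), Spns2 (0.640, at 9.13 CPM, nearest 4.49), Cd55 (0.668, at 129 CPM, nearest 66.3) and Kbtbd11 (0.752, at 5.02 CPM, nearest 1.94). It was also far above them for Itgb7 (0.729, at 175 CPM, nearest 91.8), Galnt10 (0.684, at 61.8 CPM, nearest 39.9), Nr4a3 (0.725, at 0.335 CPM, nearest 0.0920) and Ezh1 (0.644, at 80.5 CPM, nearest 55.8). GC replicate 6 was the lowest of its group, far from the others, for Gcsam (0.679, at 208 CPM, nearest 305) and Ndufb1-ps (0.675, at 57.1 CPM, nearest 67.7).

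Non-GC replicate 1 was the highest of its group, far from the others, for Hbb-bh1 (1, at 0.0860 CPM, nearest 0). Non-GC replicate 2 was the highest of its group, far from the others, for Zdhhc2 (1, at 0.372 CPM, nearest 0), Ccr10 (1, at 0.0620 CPM, nearest 0), Rgs1 (0.782, at 0.868 CPM, nearest 0.189) and Tnfsf14 (1, at 0.0310 CPM, nearest 0). Non-GC replicate 3 was the highest of its group, far from the others, for the immunoglobulin share of counts (0.856, at 2.00%, nearest 1.65), the summed CPM of plasma cell genes (0.782, at 1381 CPM, nearest 1069.9), Slc4a11 (0.884, at 27.2 CPM, nearest 15.9) and Bcl6 (0.810, at 162 CPM, nearest 119). It was also far above them for S1pr2 (0.729, at 6.85 CPM, nearest 2.38), Mybl1 (0.802, at 0.556 CPM, nearest 0.186), Kif11 (0.712, at 2.68 CPM, nearest 0.860) and Birc3 (0.712, at 363 CPM, nearest 287). It was also far above them for Ighg2b (0.848, at 846 CPM, nearest 202), Ighe (1, at 12.5 CPM, nearest 0) and Igkc (0.720, at 3473 CPM, nearest 2932). Non-GC replicate 4 was the highest of its group, far from the others, for the mean log2 CPM of homologous recombination and Fanconi genes (0.715, at 2.84, nearest 2.57), BC030867 (1, at 0.0315 CPM, nearest 0), Lrr1 (1, at 0.0315 CPM, nearest 0) and Rgs13 (0.864, at 1.04 CPM, nearest 0.201). It was also far above them for Nuggc (0.730, at 3.69 CPM, nearest 1.77), Eme1 (0.902, at 2.21 CPM, nearest 0.831), Etfa (0.765, at 89.1 CPM, nearest 80.8) and Mx2 (0.725, at 34.1 CPM, nearest 13.9). Non-GC replicate 4 was the lowest of its group, far from the others, for Rbl2 (0.779, at 168 CPM, nearest 200.4). Non-GC replicate 5 was the highest of its group, far from the others, for Tyms (0.767, at 6.89 CPM, nearest 4.67). Non-GC replicate 5 was the lowest of its group, far from the others, for Bub1 (0.722, at 0 CPM, nearest 0.663) and Ehhadh (0.766, at 10.3 CPM, nearest 13.6).

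GC replicates 2 and 6 and non-GC replicates 3 and 4 had 11, 10, 11 and 9 of the 54 values. Many come from few counts, and no explanation was tested.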

How the results depend on the processing

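Over all results 15 alternatives were run, and each library was left out in turn. Leaving sort and marker genes out of 5 lists was added after the data were seen. Leaving out 1 library kept every count within 1.5 times its value: 5997 to 6375 genes called in WT, 3059 to 3318 higher, 2886 to 3057 lower, 1457 to 1723 over 4-fold, 551 to 567 list members, 10 to 18 interferon-stimulated genes, 28 to 36 ribosomal protein genes and 6164 to 6578 genes in S1PR4-/- mice. The difference in V segment evenness ran from -28.0 to -24.1 for heavy chains and from -20.9 to -16.5 for kappa chains. DESeq2 called 6409 genes, of which 97.4% were shared in direction, limma-voom 6437 (95.9%), and RLE, upper quartile and total count scaling 6334, 6424 and 6414. Total count scaling shifted the median of all genes by -0.09, with 2938 called higher and 3476 lower, and called 7 tricarboxylic acid cycle genes. Genes over 4-fold numbered 2650 with no filter and 900 with a mean of at least 5 CPM, where more and fewer genes were tested. With FDR alone 8926 genes were called, and by construction the lists grew: 20 B cell transcription factors, 11 fatty acid oxidation, 76 ribosomal protein, 17 ribosome biogenesis, 23 B cell receptor and 23 RGS and G protein genes. With a fold change over 2, also by construction, 4017 genes (1815 lower) and 375 list members were called: 8 B cell transcription factors, 7 light zone, 9 hypermutation, 31 respiratory chain, 3 tricarboxylic acid cycle, 3 fatty acid oxidation, 3 ribosomal protein, 2 ribosome biogenesis, 4 B cell receptor, 6 MHC class II, 8 RGS and G protein, 6 glycan, 6 TNF family and 8 NF-kB genes. The interaction passed in 6 genes with DESeq2, and the cause was not tested. Lmna, not called, changed sign with limma-voom (0.135), the replicate block (0.0113) and sex as a covariate (0.0201), and ran from -0.26 to 0.23 without 1 library. The cause was not tested.

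Same-numbered libraries were checked for pairing. After removing group means, their correlations were 0.106, 0.0498, 0.0931, 0.141 and -0.00563 (mean 0.0767, beside -0.0189 for other pairs), and 3 of 5 were closest to their own number. By Xist and Ddx3y, numbers 1 to 4 agree in sex, while of number 5 the GC library is male (Ddx3y at 91.4 CPM) and the non-GC library female (Xist at 38.5 CPM), so these did not come from 1 mouse. Not every correlation was over 0.1 and the labels name no pairs, and libraries were not treated as paired. With a replicate block, 6160 genes were called, 3246 higher and 2914 lower, with 1689 over 4-fold, and 5600 in S1PR4-/- mice. With that block Grk3 (-2.43), Itgam (1.82) and Vcam1 (1.45) were not called and Rrm2b (0.59) was. In WT the block joins the libraries of number 5, which did not come from 1 mouse.

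With 5 and 6 libraries, small changes near the 1.5-fold threshold (Bcl6, Ighm, Fyn, Dhodh, Shld2) depend on the tool, the scaling or 1 library. Genes at a few counts have fold changes bounded by depth. The sort fixes differences in Fas and GL7, other cells in the gates were not tested, and dark and light zone cells were not separated. Expected counts split reads among near copies, which limits V segments, lambda chains, globins, Bcl2a1 copies and ribosomal proteins.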

Other observations

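DESeq2 passed an FDR of 0.05 for the interaction of genotype and population in 6 genes, none of which passed in edgeR. On simulated data of 2 groups DESeq2 made more false calls than edgeR. The simulation gave every gene the same relative spread between libraries, and the interaction was simulated for edgeR only. Whether any of the 6 calls is false was not tested. The 6 genes were Gna15, Nhlrc1, which was tested in neither genotype alone, and 4 genes given here, chosen after their values were seen. The log2 fold change of Rbm14 was 0.67 in WT and 1.15 in S1PR4-/- mice, that of Cdk14 3.32 and 6.58, and that of Mgll 2.5 and 4.76. Arhgap29 was not called in WT (2.22, edgeR adjusted p = 0.0589), where it was at 0, 0.0612, 0, 1.3 and 1.31 CPM in non-GC libraries, the higher values lying in replicates 4 and 5, which also had the highest NK and dendritic cell sums of their group. In WT GC libraries Arhgap29 was at 1.68 to 3.32 CPM, above every WT non-GC library. It was at 0 in all 4 S1PR4-/- non-GC libraries, against 2.58 to 5.56 CPM in the 6 S1PR4-/- GC libraries.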
